A study of Mus musculus with 6 samples.

Results

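The genes described here are 7 markers of the pyramidal cells of the cornu ammonis (CA), the principal neurons outside the dentate gyrus, out of 475 genes that the authors listed as changed in the hippocampus. They are not all the CA markers in the table, which also lists Tspan18 and Ndst4, lower in CI-994, and Tyro3, higher. The 7 were chosen by symbol: Wfs1, Htr1a and Man1a for field CA1, Pcp4 and Cacng5 for CA2, and Bok and Iyd for CA3. The study measured RNA from the whole hippocampus of one hemisphere in 6 C57Bl/6 mice aged 4 months, 3 per group. All mice acquired a contextual fear memory, were made to recall it and then went through spaced extinction. One group was injected daily with 30 mg/kg of CI-994, a drug that blocks class I histone deacetylases, which strip acetyl groups from histones, and the other with its vehicle, and tissue was taken 1 h after the last extinction session. No mouse without fear conditioning or without injection is among these groups, so both share the conditioning, recall, extinction and daily handling.

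The CA fields differ in wiring and in the genes their cells express. CA3 cells receive the mossy fibres of the dentate granule cells and send Schaffer collaterals to CA1, which carries the main output of the hippocampus, while CA2 lies between them and is known for its part in social memory and for its resistance to synaptic potentiation. Field markers of this kind are known from in situ hybridisation, and they are seldom private to one cell type. Htr1a and Pcp4, for example, are also known from dentate granule cells.

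Each gene has 1 value per group in arbitrary units, in which the authors had already combined the mice of that group. No value per mouse, error or sequencing depth was analysed here, so whether the groups overlap cannot be seen. Every p given is the p of the authors' deposited table, except the Benjamini-Hochberg adjusted values, which were computed from it. The headers do not say whether the units are scaled by transcript length, so levels are compared within a gene only. Directions follow the labelled group columns. The deposited log2 column has the opposite sign to its header in 475 of 475 genes, and if that header is right and the group columns are exchanged, every direction below turns around. The groups also differed in sex-linked transcripts: Xist, which silences an X chromosome in females, had values of 25.3 (CI-994) and 8.46 (vehicle), and the Y-linked Ddx3y of 0.0503 and 7.73. Sex is not among the labels, and a difference in sex between the groups cannot be told apart from one in treatment.

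All 7 markers had a lower value in CI-994 than in vehicle, at 36.8% to 79.9% of the vehicle value. Among all 475 genes listed, 58.1% were lower, and the markers were picked because the table lists them. The median log2 ratio (CI-994 over vehicle) was -0.67 for the 7 markers, -0.34 for all 475 genes and -0.50 for the 276 lower genes. In tissue homogenate, fewer cells of a type and less RNA per cell cannot be told apart.

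**Figure D1:**
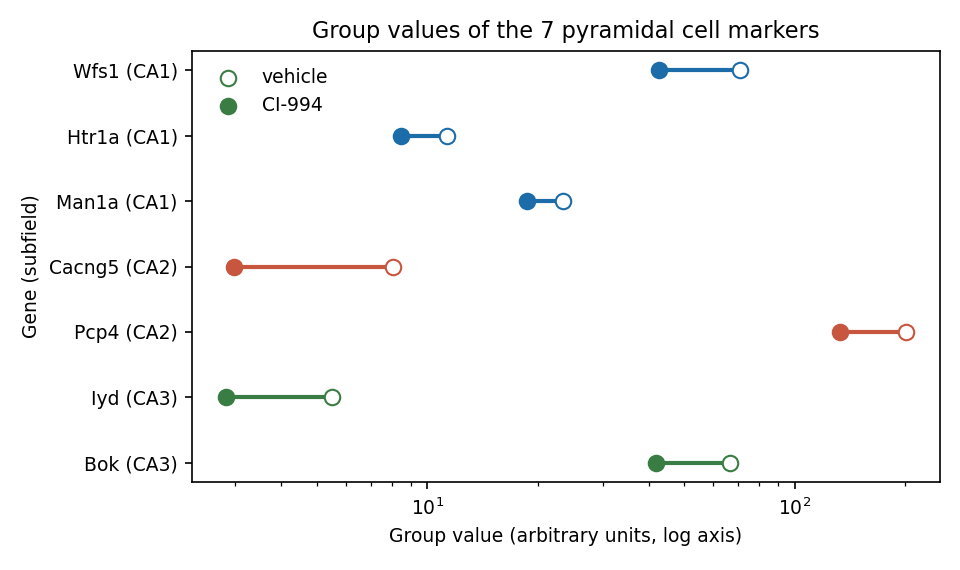
Group values of the 7 markers in arbitrary units on a log axis, with 1 open point for vehicle and 1 filled point for CI-994 per gene, coloured by CA field. The filled point lies left of the open one in every gene, with the widest gap for Cacng5 (2.96 against 8.05 units) and the narrowest for Man1a (18.7 against 23.4 units).

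The promoters of Pcp4, Bok and Cacng5 are shown because these genes had a deposited p up to 0.001 and no exon of their own in the window. Each is the 250 bases before the RefSeq gene start, read 5′ to 3′ on the gene's strand, from build GRCm38.p6. The positions are chr16:96467356-96467605 (plus strand) for Pcp4, chr1:93685325-93685574 (plus strand) for Bok and chr11:107915056-107915305 (minus strand) for Cacng5. Capitals mark GGGCGG or its reverse complement, the GC box known to bind Sp1-type factors.
Pcp4: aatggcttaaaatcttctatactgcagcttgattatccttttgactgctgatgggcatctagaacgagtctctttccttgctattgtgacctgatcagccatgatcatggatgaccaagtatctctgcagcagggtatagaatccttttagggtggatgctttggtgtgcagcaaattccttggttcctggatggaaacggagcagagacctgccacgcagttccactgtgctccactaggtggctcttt
Bok: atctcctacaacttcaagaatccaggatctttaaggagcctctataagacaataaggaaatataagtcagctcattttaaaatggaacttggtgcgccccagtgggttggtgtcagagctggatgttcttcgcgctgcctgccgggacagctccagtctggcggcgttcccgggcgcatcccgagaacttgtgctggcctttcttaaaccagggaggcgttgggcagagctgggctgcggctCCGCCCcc
Cacng5: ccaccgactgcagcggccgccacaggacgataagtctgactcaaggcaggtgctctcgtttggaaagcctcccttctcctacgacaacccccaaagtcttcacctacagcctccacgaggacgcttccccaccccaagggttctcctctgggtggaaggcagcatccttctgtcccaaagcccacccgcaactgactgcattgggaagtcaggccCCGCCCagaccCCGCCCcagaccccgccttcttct

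In base composition the promoters of the 7 markers varied widely. The windows of Man1a and Wfs1 were dense in CpG dinucleotides, with 31 and 23. Those of Bok and Cacng5 held 12 each, and those of Htr1a, Iyd and Pcp4 held 6, 5 and 3. The median was 12 for the 7 markers, 13 for the 263 promoters of genes lower in CI-994 and 6 for the 32851 promoters of the reference. Next, 5 motifs were searched on both strands, and for Cacng5, which has a second start, the outer start was used. The CpG medians and motif shares of the 263 and 32851 promoters, by contrast, count every start of a gene. GGGCGG was present in 5 of the 7 promoters, against 32.7% of all promoters and 54.8% of the 263 promoters of lower genes. It occurred 4 times in Wfs1, 2 times in Man1a and Cacng5, and once in Htr1a and Bok. By GENCODE M21, 223 of the 250 bases of the Wfs1 window lie in exons of Wfs1 itself. The windows of Man1a, Htr1a and Iyd hold 59, 54 and 34 bases of their own exons. CpG and motif counts for these windows therefore include exonic sequence. None of the GGGCGG matches in the printed windows overlapped another of the motifs. CCAAT was in 4 of 7 (33.8% of all promoters and 32.7% of those of lower genes) and CANNTG in 3 of 7 (66.2% and 60.1%). TATAAA was in 1 of 7, Iyd (12.4% and 4.94%), and the cAMP response element TGACGTCA in 0 of 7 (1.55% and 0.76%). These matches describe the windows only.

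Among the CA1 markers, Wfs1 had the largest difference. It encodes wolframin, a membrane protein of the endoplasmic reticulum that is mutated in Wolfram syndrome, and its values were 42.6 units with CI-994 and 71.0 with vehicle. That is 60.0% of the vehicle value (log2 ratio -0.74), with a p of 9.85e-07 in the authors' deposited table, the smallest of the 7 and the 50th smallest of 475. Htr1a, the inhibitory serotonin 1A receptor, was at 8.48 against 11.3 units (log2 ratio -0.41, p = 0.0296 in the authors' deposited table). Man1a, a Golgi mannosidase that trims N-linked glycans, had the smallest difference, 18.7 against 23.4 units (log2 ratio -0.32). Its p of 0.0497 was the 472nd smallest of 475 in the authors' deposited table, so Man1a sat at the edge of what the authors listed.

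The CA2 markers were the most unequal pair. Cacng5 encodes TARP gamma-5, an auxiliary subunit of AMPA-type glutamate receptors, and had 2.96 units with CI-994 against 8.05 with vehicle. It was 2.72-fold lower (log2 ratio -1.44, p = 5.68e-05 in the authors' deposited table), the largest difference of the 7 and the 12th largest of the 276 lower genes. Pcp4, also called PEP-19, is a small protein that binds calmodulin and speeds its exchange of calcium. It was at 133 against 201 units, 1.51-fold lower (log2 ratio -0.59, p = 0.000432 in the authors' deposited table). In proportion, Pcp4 therefore lost less than Cacng5, the other gene of the pair.

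The CA3 markers lay between these. Bok, a member of the BCL-2 family that can promote apoptosis, had 42.0 units with CI-994 against 66.6 with vehicle (1.59-fold lower, log2 ratio -0.67, p = 0.000125 in the authors' deposited table). Iyd, the iodotyrosine deiodinase known for recovering iodide in the thyroid, was at 2.83 against 5.49 units (1.94-fold lower, log2 ratio -0.96). Although Iyd lay further below vehicle in proportion than Bok, its p in the authors' deposited table was only 0.0184.

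**Figure D2:**
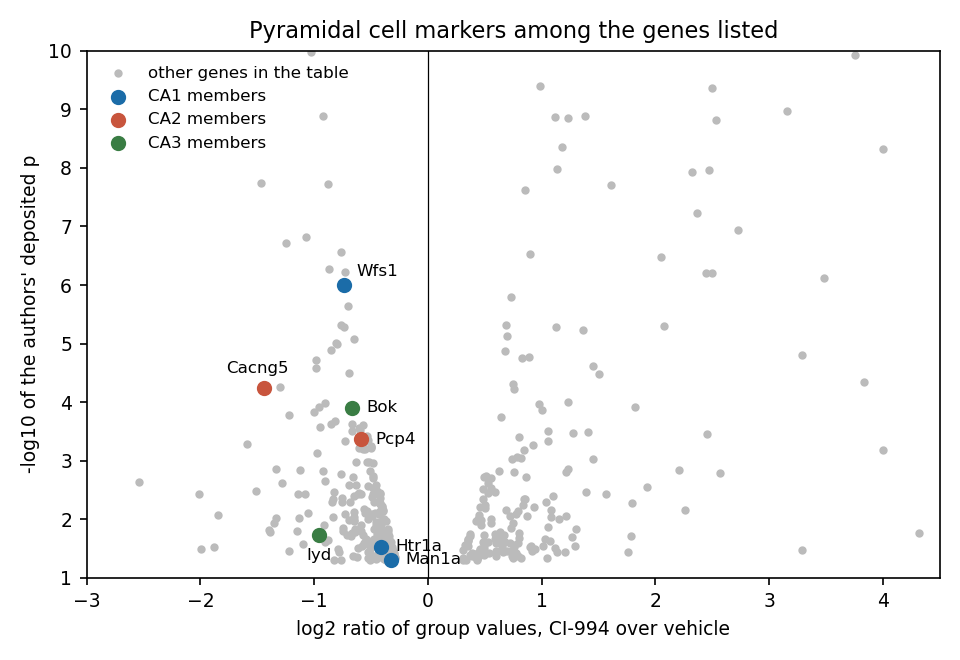
The log2 ratio (CI-994 over vehicle) is plotted against the -log10 of the authors' deposited p, with the 7 markers in colour by CA field and other genes of the table in grey. The axes hold 456 of the 475 genes, and the other 19 lie outside them or have a p given as 0. Wfs1, Cacng5, Bok and Pcp4 rise above the dense base of the plot, while Iyd, Htr1a and Man1a lie within it.

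How many of the markers count as lower depended on the threshold. With a deposited p up to 0.01 there were 4 of 7 (Wfs1, Cacng5, Bok and Pcp4), against 26.1% of the table lower at that p. At least 1.5-fold lower were 5 of 7, against 23.2% of the table, and at least 2-fold lower 1 of 7, Cacng5, against 7.16%. These shares are of all 475 genes, higher ones included, whereas all 7 markers were lower. Of the 276 lower genes, 124 had a p up to 0.01, 110 were at least 1.5-fold lower and 34 at least 2-fold. How many genes were tested in all is not stated. Nor is it stated that the table holds the smallest p-values of all genes tested, which the adjustment used here takes for granted. Assuming 15000 tested genes, Benjamini-Hochberg adjustment of the deposited p kept 3 of 7 at 0.05. In the table, 8.63% of genes were kept and lower, or 41 of the 276 lower genes. The markers kept were Wfs1 (0.000296), Cacng5 (0.0112) and Bok (0.0221), while Pcp4 was at 0.0623 under these assumptions.

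In mm9 coordinates as the authors give them, with starts counted from 1, Wfs1 lies on chromosome 5 from 37357343 to 37380221, Htr1a on chromosome 13 from 106233773 to 106238213, and Man1a on chromosome 10 from 53625839 to 53795602. Pcp4 lies on chromosome 16 from 96689213 to 96747400 and Cacng5 on chromosome 11 from 107735919 to 107776369. Bok lies on chromosome 1 from 95582271 to 95592339 and Iyd on chromosome 10 from 6791664 to 6806262. The loci ran from 4.44 kb (Htr1a) to 170 kb (Man1a). In GENCODE M21, 243 of the 1026 exonic bases of Pcp4 are shared with Igsf5 on the same strand, and 147 of the 9647 of Man1a with the opposite-strand Gm16998. Reads there could have been assigned to either gene, and neither Igsf5 nor Gm16998 was in the table. The other 5 markers overlapped no annotated gene.

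Most other markers of these fields were not in the table. Of 47 markers, 17 of CA1, 13 of CA2 and 17 of CA3, 10 were listed, 9 lower and 1 higher, and 37 were not listed. Besides the 7, the listed ones were Tspan18 of CA3, a tetraspanin, at 4.83 against 9.54 units (log2 ratio -0.98, p = 1.88e-05 in the authors' deposited table), Ndst4 of CA1, an enzyme of heparan sulfate synthesis, at 5.29 against 8.58 units (-0.70, p = 0.00261) and Tyro3 of CA1. Tyro3, a receptor tyrosine kinase of the TAM family, went the other way, at 31.7 units with CI-994 and 24.8 with vehicle (log2 ratio 0.35, p = 0.0218 in the authors' deposited table). By field, 4 CA1 markers were lower and 1 higher, and the 2 of CA2 and 3 of CA3 were all lower. Lower genes made up 58.1% of all 475 genes listed, and 7 of these 10 markers were picked because they were listed. The CA lists were also chosen with earlier results of these data known, so these counts cannot tell whether the fields differ. The CA2 markers Rgs14 and Amigo2 and the CA3 marker Grik4 were among those not listed. None of 10 genes of principal neurons in general, such as the vesicular glutamate transporter Slc17a7, Camk2a and Neurod6, was in the table. As the table holds changed genes only, a gene not listed may be unchanged or may not have been tested.

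Markers of 2 other cell types also differed between the same groups, those of dentate granule cells in the direction of the 7 CA markers and those of the choroid plexus in the opposite one. Of 25 dentate granule cell markers 20 were listed, all lower, with log2 ratios from -2.32 (C1ql2) to -0.35 (Calb1) and a median of -0.92. Of 24 choroid plexus markers 23 were listed, all higher, from 1.06 (Slc13a4) to 4.00 (Tmem72), with a median of 2.73. Of all 475 genes listed, 58.1% were lower. The marker lists were written with earlier results of these data known, so these counts and directions are no independent evidence about either cell type. The part of the dentate and choroid plexus differences in the CA marker values was not tested.

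**Figure D3:**
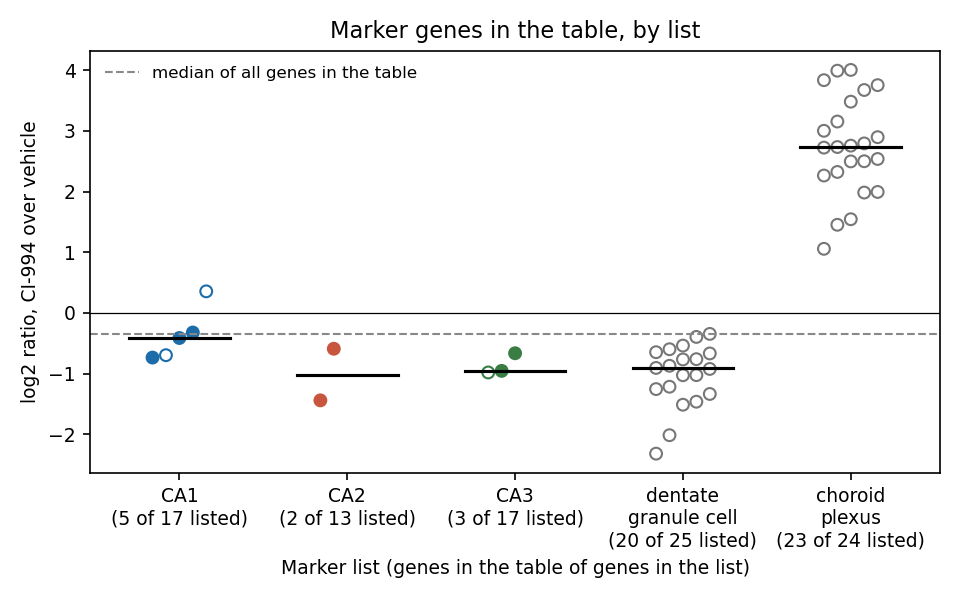
Log2 ratios of CI-994 over vehicle for the listed genes of 5 marker lists, with 1 point per gene, filled for the 7 markers and open for the others. Black lines are list medians and the dashed line is the median of all genes in the table (-0.34). The CA markers lie from -1.44 to 0.35, within the range of the dentate markers except for Man1a and the higher Tyro3, and below all choroid plexus markers.

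The families of the markers were mostly absent from the table. Of 16 AMPA receptor and auxiliary subunit genes 3 were listed, all lower, where 58.1% of all 475 genes in the table were lower. Beside Cacng5 they were Gsg1l, an auxiliary subunit that slows receptor recovery, at 3.79 against 7.37 units (log2 ratio -0.96, p = 0.00012 in the authors' deposited table), and Cacng8, TARP gamma-8, the abundant hippocampal TARP, at 128.0 against 163 units (-0.34, p = 0.0348). The pore-forming subunits Gria1 to Gria4 were not listed. Of 14 serotonin receptor genes 3 were listed and divided. Htr4, which couples to cAMP production, was lower like Htr1a, at 2.52 against 4.18 units (-0.73, p = 0.00826 in the authors' deposited table). Htr2c, known for its strong expression in choroid plexus, was higher, at 17.8 against 8.21 units (log2 ratio 1.12), as were the choroid plexus markers.

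Of 20 genes of calmodulin, its binding partners and related proteins 5 were listed, 3 lower and 2 higher, where 58.1% of all 475 genes were lower. Pcp4 and its paralog Pcp4l1 went in opposite directions: Pcp4l1 had 53.7 units with CI-994 against 39.6 with vehicle (log2 ratio 0.44, p = 0.00994 in the authors' deposited table). The growth cone protein Gap43, which also has a calmodulin-binding IQ motif, was higher as well (0.37), while the phosphodiesterase Pde1b (-0.49) and the CaM kinase II inhibitor Camk2n1 (-0.32) were lower. Of 18 N-glycan processing genes Man1a and a second mannosidase of its class, Man1c1, were listed, the latter at 7.26 against 9.57 units (-0.40, p = 0.042 in the authors' deposited table). Bok was the single listed gene of 19 in the BCL-2 family, Iyd of 15 in thyroid hormone metabolism and action, and Wfs1 of 17 in the endoplasmic reticulum stress response, where the chaperone Hspa5 and the transcription factors Atf4 and Xbp1 were not listed.

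**Figure D4:**
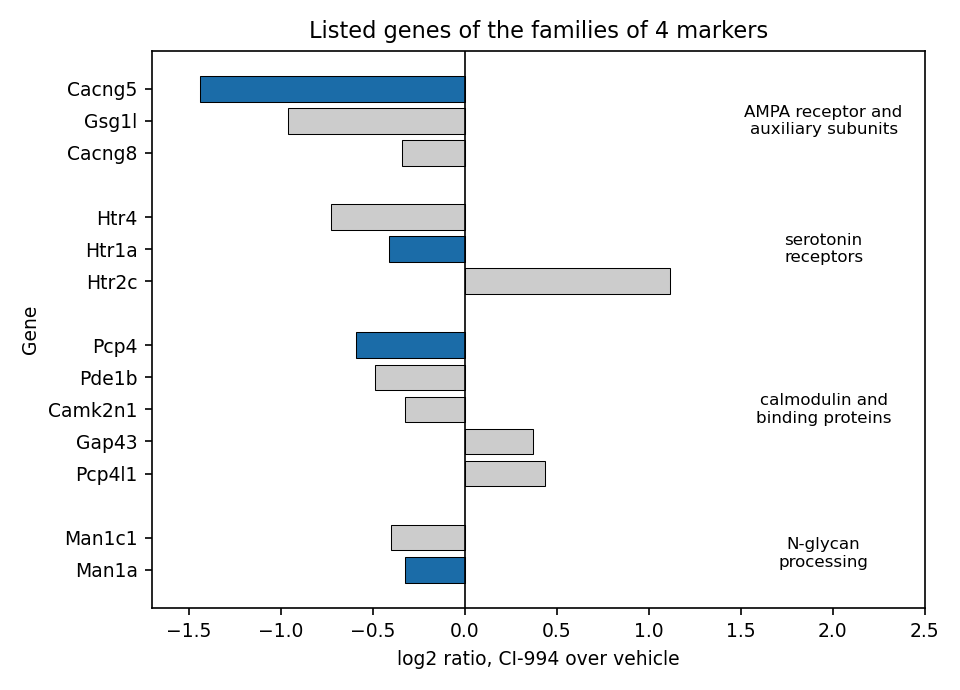
Bars give log2 ratios (CI-994 over vehicle) for listed genes of 4 gene families, in blue for the CA markers and in grey for their relatives. The 3 AMPA receptor and 2 N-glycan genes are all lower, whereas Htr2c (1.12), Pcp4l1 (0.44) and Gap43 (0.37) are higher beside lower relatives. Of all 475 genes in the table, 58.1% are lower.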

How the data were processed

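The submitters' processing notes name TopHat, Cuffdiff and build mm9. Tool versions, annotation, strand use and filtering were not stated there. The authors deposited 1 expression signal per gene and group in arbitrary units, a log2 ratio and a p-value. All listed p-values lie below 0.05, and the header does not call them adjusted. The depth per sample is unknown.

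The ratio of CI-994 over vehicle was recomputed in log2 from the group signals with no pseudocount. With 1 value per group no test was run here. Gene lists (15 of markers, 7 of families) were matched by symbol and RefSeq synonym, and 300 of 300 listed symbols had a RefSeq name. Members and lists were chosen with earlier results of these data known. Named genes were the members, listed genes of the CA and family lists and the extreme genes of the other lists. A planned search for genes with the nearest group values is not reported, as it compares levels between genes. The list genes named as not listed, Xist and Ddx3y were chosen after their values were seen. Locus starts were raised by 1, since end minus start equalled the RefSeq gene length in 109 of 438 matched genes and was 1 short of it in 16. Promoters came from RefSeq (GRCm38.p6), with 7 of 7 members matched. The adjustment was tested on simulated data. The software was matplotlib 3.10.9, scipy 1.17.1, pandas 2.3.3 and numpy 2.4.6 under Python 3.11.15.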

Additional observations from a re-analysis of the deposited data

How the results depend on the processing

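The 7 lower markers, beside 276 lower genes in the table of 475, became 4 at a deposited p up to 0.01 (beside 124 genes) and 4 at up to 0.001 (beside 54), and 1 at 2-fold or more (beside 34). After Benjamini-Hochberg adjustment over an assumed 10000, 15000 and 20000 tested genes they became 4, 3 and 3 (beside 47, 41 and 34), since each setting admits fewer genes. They stayed 7 with at least 1 unit in both groups (beside 265) and were 5 at 1.5-fold (beside 110). These gene counts include the markers. Read by the header of the deposited log2 column, 0 of 7 are lower by construction, with log2 ratios of 1.44 (Cacng5), 0.96 (Iyd), 0.74 (Wfs1), 0.67 (Bok), 0.59 (Pcp4), 0.41 (Htr1a) and 0.32 (Man1a). A pseudocount of 1 unit drew Cacng5 to -1.19 and Iyd to -0.76 and turned no sign. The share of lower genes in the table was 61.1% without choroid plexus markers and 56.3% without dentate markers. No paired analysis was possible because the table holds 1 combined value per group, in arbitrary units and not as read counts. Leaving out a mouse, another normalization and a filter on read counts were not run for the same reason.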

Other observations

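Markers of neighbouring regions and of other cells in the tissue were sparse in the table. In log2 ratios of CI-994 over vehicle, Calb2, the 1 listed of 8 mossy cell markers, was at -0.52. Slc17a6, the 1 listed of 8 subicular markers, was at -0.72 and is also a thalamic marker, of which 2 of 10 were listed, the other being Prkcd (-0.82). Of 12 interneuron markers 2 were listed, Vip (0.69) and Reln (-0.39). Of 10 meningeal markers 4 were listed, with Igf2 higher (1.38) and Aldh1a2 (-1.15), Fmod (-1.14) and Ptgds (-0.53) lower. The lists of astrocytes (Aqp4, -0.34, 1 of 10), oligodendrocytes (Hapln2, 0.72, 1 of 11) and endothelium (Vwf, -0.51, 1 of 10) had 1 listed gene each, and the 10 microglial markers had 0.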
